A study of Mus musculus with 11 samples.

Results

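The odorant receptor (OR) genes of mouse chromosome 19 were taken as all numbered Olfr symbols from Olfr1417 to Olfr1505. The count table held 59 such genes, out of 1125 Olfr symbols (5.24%) and 24421 table entries, and 0 pseudogene-suffixed symbols fell in that range. All 59 were placed on chromosome 19 by the GENCODE annotation of the GRCm38 (mm10) assembly, among 62 Olfr symbols there. Those outside the number range were counted among the other Olfr genes used for comparison. The 59 genes were followed by RNA-seq in the main olfactory epithelium (MOE), where the olfactory sensory neurons (OSNs) of the nose lie. The libraries came from 3 genotypes of a deletion of the Taar cluster. Wild type mice carried 2 intact copies of the cluster from Taar2 to Taar9 (n = 3 libraries), heterozygous mice 1 (n = 4) and homozygous mice 0 (n = 4). Taar genes encode a separate family of olfactory receptors, and the germline deletion is on another chromosome than the 59 genes. The labels give an age of P1-P2 and the C57BL/6 strain to all 11 libraries, and name no sex, litter or pool of animals. The reporting part of the paper gives this line an older age and a mixed C57BL/6J and 129 background instead, and this was not settled here.

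OR genes encode G protein-coupled receptors that bind odorants. A mature OSN expresses a single OR gene from a single allele, so in tissue RNA the count of an OR gene rises with the number of neurons that chose it as well as with the RNA that each makes. In bulk samples fewer neurons and less RNA per neuron cannot be told apart. OR genes lie in clusters that arose by local duplication, and neighbours are often close copies grouped into families (MOR names in RefSeq). Each OR gene is chosen only within a zone of the epithelium, and many clusters contain enhancers bound by Lhx2 and Ebf factors, whose motifs are also found at OR promoters.

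The 59 genes spanned 2092 kb, from 11828077 to 13919972 in RefSeq coordinates (GRCm38.p6), with 33 genes on the plus and 26 on the minus strand. A gap of 251 kb split them into 17 genes from Olfr1417 to Olfr1441 and 42 genes from Olfr1442 to Olfr1505. The RefSeq synonyms put 30 of the genes into family MOR202, 8 into MOR266, 6 into MOR239, 4 each into MOR214 and MOR212, 3 into MOR211, 2 into MOR215 and 1 into MOR127. Olfr1432 had no MOR name. MOR239 and MOR214 lay wholly before the gap, and MOR202 wholly after it. Coding lengths ran from 921 to 1077 bases.

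Close copies were common, which bears on how reads could be assigned. The closest other OR coding sequence was another of the 59 for 54 genes, the median identity to it was 89.1%, and 18 genes had a copy with over 95% identity. In 20 genes fewer than 80% of the 51-base stretches of the coding sequence occurred in that OR gene alone (read length, and what was done with reads that match several places, are not given in the sources used here). One pair is shown because its differences are unevenly spread. Olfr1425 and Olfr1426 of MOR239 differed at 51 of 936 coding bases, of which 26 fell into the 90 bases from 603 to 692, counted from the start codon. Capitals mark the bases that differ.
Olfr1425: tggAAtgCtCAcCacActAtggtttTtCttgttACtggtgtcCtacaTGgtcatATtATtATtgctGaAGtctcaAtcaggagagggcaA
Olfr1426: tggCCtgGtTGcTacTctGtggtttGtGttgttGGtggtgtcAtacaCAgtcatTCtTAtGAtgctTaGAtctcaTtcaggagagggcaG
Counts of the 2 genes were far apart all the same, with 64 for Olfr1425 and 394 for Olfr1426 over the 11 libraries. In Olfr1471 and Olfr1474 of MOR202 only 27 of 945 coding bases differed, and 6 of them are in the stretch from base 424 to 513.
Olfr1471: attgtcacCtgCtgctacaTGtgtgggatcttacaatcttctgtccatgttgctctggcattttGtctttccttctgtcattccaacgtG
Olfr1474: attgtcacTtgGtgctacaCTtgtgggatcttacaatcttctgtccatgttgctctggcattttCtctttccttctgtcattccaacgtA
These 2 genes had near-equal totals of 56 and 59 counts. Values of single genes with such copies are uncertain. Sums over a family depend less on how reads were divided among its copies. If reads that match several places were left out, the sums would miss them too.

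RefSeq promoter windows were given for 56 of the 59 genes. At 50 of them the window sat at or near the start codon, and at 6 it sat at an upstream start. For 4 of these 6, which were among the 11 genes with the highest levels (below), the 200 bases before the annotated start are shown, since their windows do not reach the start codon. They lie at chr19:12091848-12092047 (minus strand) for Olfr1426, chr19:12279654-12279853 (plus strand) for Olfr1434, chr19:12325064-12325263 (minus strand) for Olfr1437 and chr19:12677966-12678165 (plus strand) for Olfr1443, in GRCm38.p6. Capitals mark the homeodomain core TAATTA and the Ebf core CCCNNGGG, searched on both strands together with the TATA box TATAAA.
Olfr1426: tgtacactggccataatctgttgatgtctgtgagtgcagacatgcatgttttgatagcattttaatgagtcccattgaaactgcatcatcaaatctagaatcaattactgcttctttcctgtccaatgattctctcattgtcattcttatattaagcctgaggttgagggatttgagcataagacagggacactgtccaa
Olfr1434: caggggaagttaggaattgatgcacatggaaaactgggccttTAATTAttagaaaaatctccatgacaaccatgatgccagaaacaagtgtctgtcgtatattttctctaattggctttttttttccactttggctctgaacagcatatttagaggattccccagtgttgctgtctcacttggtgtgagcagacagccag
Olfr1437: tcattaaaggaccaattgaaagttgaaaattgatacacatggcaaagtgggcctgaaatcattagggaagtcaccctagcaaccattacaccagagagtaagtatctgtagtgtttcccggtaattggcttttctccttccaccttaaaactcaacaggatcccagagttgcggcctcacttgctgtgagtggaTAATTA
Olfr1443: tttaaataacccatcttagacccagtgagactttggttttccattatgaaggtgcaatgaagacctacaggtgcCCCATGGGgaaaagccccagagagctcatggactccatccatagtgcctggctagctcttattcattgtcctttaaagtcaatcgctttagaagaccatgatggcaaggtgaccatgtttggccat
The stretch of Olfr1437 runs 3 bases past the start, to the end of its motif. The TAATTA core began 158 bases before the start of Olfr1434 and 3 bases before that of Olfr1437, both in MOR214, whose stretches were 63.0% identical. The CCCNNGGG core began 126 bases before the start of Olfr1443, and the window of Olfr1426 held none of the 3 motifs. The upstream windows not shown, of Olfr1477 and Olfr1480, held neither TAATTA nor CCCNNGGG. Among all 6 upstream windows 2 held TAATTA, 1 CCCNNGGG and 1 TATAAA. Among all 32851 RefSeq windows of this length, 5.29% held TAATTA, 13.7% CCCNNGGG and 13.6% TATAAA. Among the 56 windows here these shares were 23.2%, 1.79% and 32.1%, but most of these windows cover the start of the coding exon. The matches are letters in a window, and binding was not measured.

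Depth was 9239866 to 14632525 counts per library. Over the 14 deleted Taar genes, wild type libraries held 87 to 119 counts, heterozygous ones 31 to 96 and homozygous ones 1 to 3. The libraries fell into 2 sets on the first principal component (41.6% of the variance), set 1 with wild type 1 and 2, heterozygous 3 and 4 and homozygous 1 and 2, and set 2 with the others. In homozygous 2, 25.8% of all counts were of the ribosomal RNA gene Rn45s (0.0848 to 0.786% in the other libraries). Xist, which is transcribed from the inactive X chromosome, stood at 1327 to 4297 CPM (counts scaled to a common library total after TMM scaling) in all 3 wild type libraries, in heterozygous 3 and in homozygous 1, and at no more than 1.70 CPM in the other 6. The Xist level therefore moved with genotype, and the labels give no sex. The summed level of 9 markers of mature OSNs, Omp among them, was 1237 to 2174 CPM in wild type, 1288 to 1746 in heterozygous and 1164 to 1555 in homozygous libraries. The 6 markers of skeletal muscle summed to 5.47 to 50.03, 14.1 to 1469 and 16.3 to 687 CPM. Of 5 erythrocyte markers, Hba-a1, Hba-a2, Hbb-bs and Hbb-bt were at 0 in every library, and the list summed to 8.09 to 19.1 CPM.

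Transcripts of all 59 genes were counted. Every gene had at least 1 count in some library, and 48 had counts in all 11. The other 11 had 0 counts in at least 1 library, which allows up to 3 counts there by counting error alone. The total over the 11 libraries ranged from 5 counts (Olfr1475) to 515 (Olfr1428), with a median of 74, and the 59 genes together held 6983. The 10 genes with the most counts carried 44.7% of them. Divided by coding length, the mean level ran from 0.0390 to 4.07 CPM per kb, a 104-fold range, with a median of 0.623. Among the 1050 other Olfr symbols with a coding length the median was 0.659 and the highest 45.7 CPM per kb. Of these, 29 lay above the highest of the 59 genes. A total of 29 of the 59 genes (49.2%) and 50.6% of the other Olfr symbols passed the filter on low counts. Values of single genes of the 59 that follow rest on few reads, and counting error alone is large for most of these genes.

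**Figure D1:**
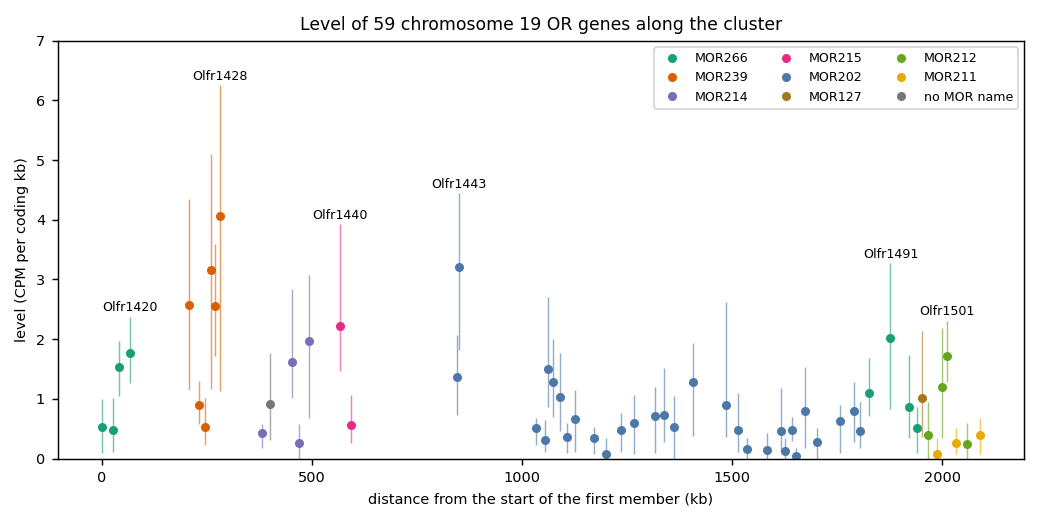
Mean level over 11 libraries (points, CPM per coding kb) of the 59 genes against distance from the start of the first gene (kb), coloured by MOR family, with lines from the lowest to the highest library. The 6 MOR239 genes before the gap hold Olfr1428 at 4.07, and after it only Olfr1443 of MOR202 exceeds 3 CPM per kb.

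The highest levels were before the gap. The 17 genes there had a median of 1.54 CPM per coding kb and carried 46.7% of the counts, and the 42 genes after it had a median of 0.523. Of the 10 genes with the highest mean level, 7 lay before the gap: Olfr1428, Olfr1426, Olfr1423 and Olfr1427 of MOR239, Olfr1440 of MOR215, Olfr1437 of MOR214 and Olfr1420 of MOR266. The 3 others were Olfr1443 of MOR202, Olfr1491 of MOR266 and Olfr1501 of MOR212. Of these 10, 4 (Olfr1426, Olfr1428, Olfr1437 and Olfr1443) had a RefSeq model over 10% longer than the coding sequence, as had 10 of the 59 genes. Those 10 had a median of 1.58 CPM per coding kb, and the 49 others 0.532. The annotation behind the counts is not given in the sources used here, and how far reads outside the coding sequence enter these levels was not tested.

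MOR239 was the family with the highest median level, 2.57 CPM per coding kb over 6 genes, and it held 24.6% of the counts. Levels within it were far apart, from 0.523 (Olfr1425) to 4.07 CPM per kb (Olfr1428). The larger MOR202 held 35.9% of the counts with a median of 0.521 CPM per kb over 30 genes, from 0.0390 (Olfr1475) to 3.20 (Olfr1443). MOR266 has 4 genes on each side of the gap, and its 8 genes had levels of 0.480 to 2.03 with a median of 0.982 CPM per kb. MOR211 was low throughout, at 0.0787 to 0.397 CPM per kb. The 20 genes with under 80% of unique stretches had a median of 0.502 CPM per kb and the 39 others 0.724.

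Olfr1428, with the highest mean level, stood at 2.97, 3.77 and 5.89 CPM in wild type libraries (replicates 1, 2 and 3), 5.10, 5.57, 3.22 and 1.07 CPM in heterozygous libraries (1 to 4), and 2.69, 2.73, 4.84 and 4.30 CPM in homozygous libraries (1 to 4). Below, values stand in this order. The genotypes overlapped, and heterozygous 4 was lowest of all. Olfr1443 stood at 3.61, 2.24 and 3.88 CPM in wild type, at 1.70, 4.16, 3.89 and 2.89 in heterozygous, and at 3.28, 2.84, 2.35 and 2.15 in homozygous replicates. Here heterozygous 1 was lowest. Next in order of mean level were Olfr1426 (3.16 CPM per coding kb), Olfr1423 (2.57) and Olfr1427 (2.56), and these neighbours in the order do not differ beyond the spread over libraries, which was 1.17 to 5.11, 1.15 to 4.34 and 1.72 to 3.597 CPM per kb.

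Olfr1440 (MOR215-1) is the mouse receptor known for its response to musk ketones such as muscone. It ranked 6 of 59, at 2.22 CPM per coding kb. Its values were 1.67, 2.16 and 3.71 CPM in wild type, 1.84, 2.04, 1.71 and 1.39 in heterozygous, and 2.103, 1.42, 2.93 and 2.15 in homozygous replicates. All 3 genotypes overlapped. Its neighbour of the same family, Olfr1441, reached 0.569 CPM per kb, and their coding sequences were 66.4% identical.

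**Figure D2:**
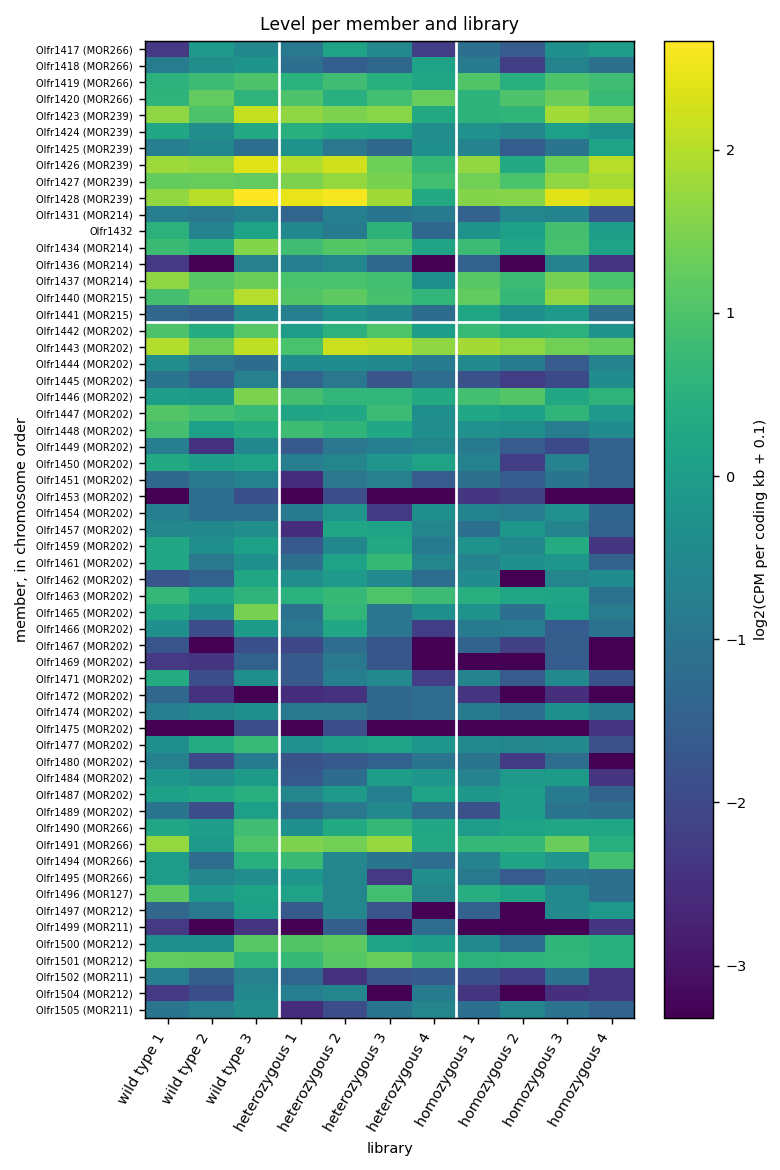
Level, as log2(CPM per coding kb + 0.1), of each of the 59 genes (rows, in chromosome order, MOR family in brackets) in the 11 libraries (columns), with white lines between genotypes and at the gap. The rows differ far more than the columns, and Olfr1475 is at 0 in 8 of 11 libraries.

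The share of the chromosome 19 genes among all OR counts was compared first, since it does not depend on how much OSN RNA a library holds. It was 4.79, 4.35 and 5.52% in wild type, 4.61, 4.93, 4.79 and 4.38% in heterozygous and 4.67, 5.08, 4.89 and 4.26% in homozygous libraries. The genotypes overlapped, with the highest value in wild type 3 and the lowest in homozygous 4. Means were 4.89% ± 0.590 (SD, n = 3), 4.68% ± 0.237 (SD, n = 4) and 4.72% ± 0.350 (SD, n = 4). For wild type 3 the 95% Wilson interval was 5.18 to 5.87%, and for homozygous 4 it was 3.93 to 4.63% (counting error only). Homozygous and wild type means differed by a log2 ratio of -0.05, heterozygous and wild type by -0.06 and homozygous and heterozygous by 0.01, less than the spread between replicates in each case (0.144, 0.133 and 0.0928 as pooled SD of log2 shares). Within set 1 the means were 4.57, 4.59 and 4.87%, and within set 2 they were 5.52% (1 library), 4.77 and 4.58%. Without wild type 3 the homozygous log2 ratio was 0.05 and the heterozygous 0.03.

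As a ratio to the counts of all other Olfr genes, the genes stood at 51.4 ± 6.53 (SD, n = 3), 49.1 ± 2.60 (SD, n = 4) and 49.6 ± 3.85 (SD, n = 4) per 1000 in wild type, heterozygous and homozygous libraries. Their summed level in the tissue was 60.9 ± 13.5, 53.1 ± 10.1 and 48.0 ± 6.91 CPM (SD, same n), and that of all other Olfr genes 1177 ± 115, 1076 ± 153 and 973 ± 153 CPM. Both sums were highest in wild type and lowest in homozygous means, and the sums of the chromosome 19 genes overlapped. As percent of all counts, without TMM scaling, the homozygous log2 ratio to wild type was -0.44, with the Rn45s counts of homozygous 2 in the denominator.

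Below the level of the whole cluster, the 2 families with the most counts did not keep a fixed proportion. MOR202 took 1.93, 1.54 and 2.11% of OR counts in wild type, 1.30, 1.85, 1.95 and 1.91% in heterozygous and 1.82, 2.08, 1.51 and 1.06% in homozygous replicates. MOR239 took 1.002, 1.08 and 1.34%, then 1.40, 1.31, 0.9999 and 0.713%, then 1.01, 0.956, 1.23 and 1.45% in the same order. Neither share separated the genotypes.

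The ratio of MOR202 to MOR239 counts, like the zone markers below, was chosen after values were seen. It was 1.93, 1.43 and 1.57 in wild type, 0.928, 1.42, 1.95 and 2.68 in heterozygous and 1.79, 2.17, 1.22 and 0.736 in homozygous replicates. Counting error was smaller than this range, with 95% Wilson intervals of 1.997 to 3.61 for heterozygous 4 and 0.589 to 0.920 for homozygous 4. The ratio ran from 1.43 to 2.68 in the 6 libraries of set 1 and from 0.736 to 1.57 in the 5 of set 2, so the sets overlapped by little. Because the sets come from the same libraries and were not assigned by the study, no test was made.

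Markers of the epithelial zones are given beside it. Ncam2, an adhesion molecule of ventral OSN axons, was lowest in the libraries with the lowest ratios, heterozygous 1 (21.1 CPM) and homozygous 4 (21.6 CPM), and stood at 30.8 to 52.0 CPM in the 9 others. The lowest of these 9 was heterozygous 4, the library with the highest ratio, so Ncam2 and the ratio did not share one order. Nqo1, which marks dorsal OSNs, was 89.4 and 72.3 CPM in those 2 libraries and 47.4 to 103 CPM in the others. How far the part of the epithelium sampled enters the ratio was not tested.

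**Figure D3:**
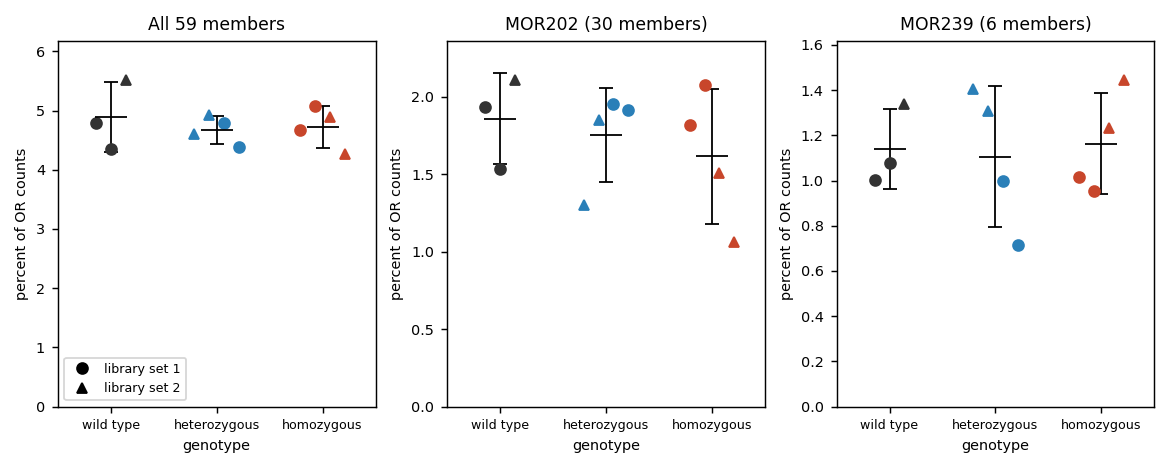
Percent of all OR counts per library for the 59 genes, for the 30 MOR202 genes and for the 6 MOR239 genes, by genotype, with circles for library set 1, triangles for set 2 and bars for mean ± SD. The genotypes overlap in each panel, and homozygous 4 is lowest for MOR202 (1.06%) and highest for MOR239 (1.45%).

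Whether single genes changed with the loss of both Taar clusters was tested with edgeR on all 16574 genes that passed the filter. In homozygous against wild type libraries 0 of the 29 tested genes had an adjusted p under 0.05, as had 0.0% of all genes tested (0 genes). The lowest adjusted p of the 29 was 0.996. DESeq2 called 0 of the 59 and 8 genes in all. At an unadjusted p under 0.05, 3 of the 29 were lower in homozygous libraries and 0 higher, against 1.21% of all tested genes that were lower. Of the 539 other tested Olfr genes 32 were lower at this threshold and 0 higher. The 3 genes are Olfr1450, Olfr1477 and Olfr1448, all of MOR202.

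Olfr1450 stood at 1.11, 0.882 and 0.969 CPM in wild type, 0.476, 0.549, 0.758 and 0.963 in heterozygous and 0.505, 0.109, 0.514 and 0.258 in homozygous replicates. Values of the 4 homozygous libraries were all lower than those of wild type, with heterozygous libraries between and across them. The difference on the log2 scale was -1.43 ± 0.46 (SE, unadjusted p = 0.00862, quasi-likelihood test in edgeR). The homozygous values are 6, 1, 7 and 3 counts.

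Olfr1477 stood at 0.649, 1.122 and 1.45 CPM in wild type, 0.680, 0.863, 0.948 and 0.749 in heterozygous and 0.589, 0.545, 0.587 and 0.172 in homozygous replicates. The homozygous libraries lay below all wild type and heterozygous ones, but the gap to wild type 1 was narrow. By edgeR this was a difference of -1.17 ± 0.43 on the log2 scale (SE, unadjusted p = 0.0190), and without wild type 3 it was -0.90 (unadjusted p = 0.0917). Olfr1477 is 96.5% identical to Olfr1484, and its counts are uncertain for that reason.

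Olfr1448 stood at 1.67, 0.882 and 1.13 CPM in wild type, 1.56, 1.33, 1.04 and 0.642 in heterozygous and 0.673, 0.654, 0.440 and 0.602 in homozygous replicates. Heterozygous 4 fell among the homozygous libraries, which all lay below wild type. The difference by edgeR was -1.04 ± 0.39 on the log2 scale (SE, unadjusted p = 0.0205), and -0.76 without wild type 1 (unadjusted p = 0.109).

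Olfr1447 and Olfr1487 of the same family followed in the order of p. Olfr1447 had 1.64 CPM on average in wild type and 0.994 in homozygous libraries (-0.70 ± 0.34 SE on the log2 scale, unadjusted p = 0.0600 by edgeR). Olfr1487 had 1.06 and 0.582 CPM (-0.88 ± 0.43 SE, unadjusted p = 0.0618 by edgeR). These 5 genes were also the 5 of 29 whose homozygous libraries all lay below the wild type libraries. Over all tested genes that held for 2.48%, and over the other Olfr genes for 54 of 539. None of the 29 lay wholly above.

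**Figure D4:**
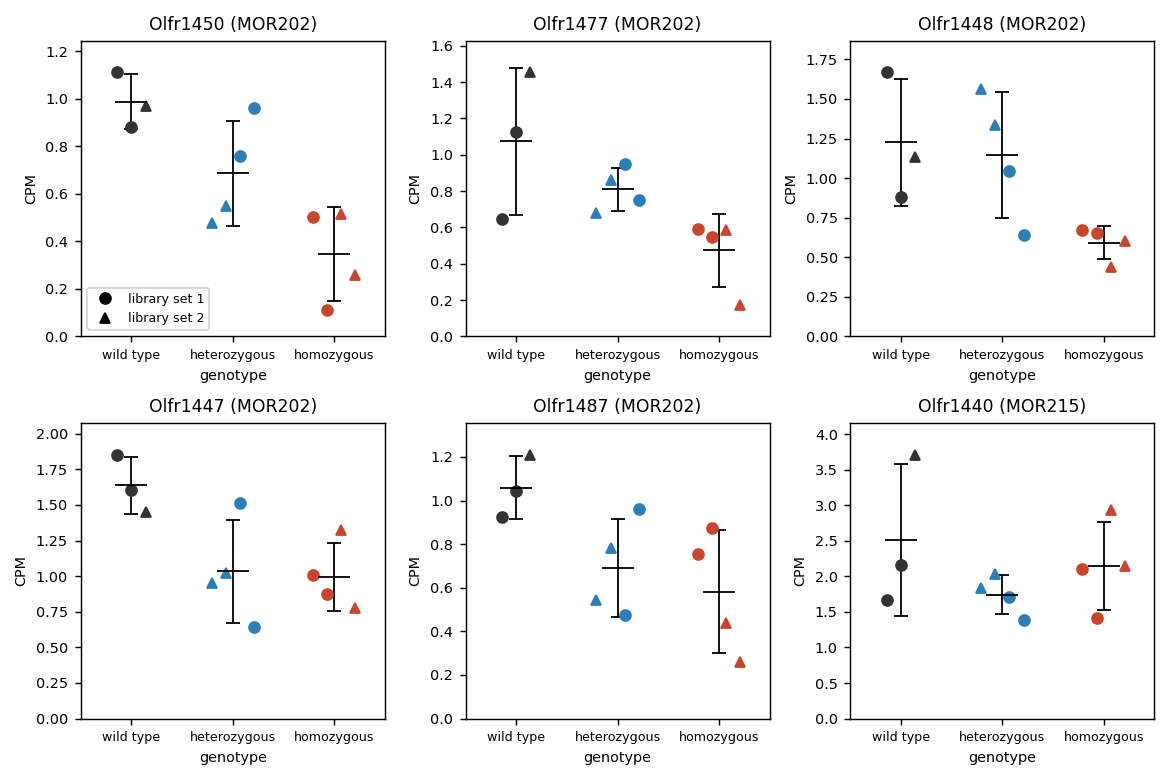
CPM per library of the 5 genes with the lowest p in homozygous against wild type libraries and of Olfr1440, by genotype, with circles for library set 1, triangles for set 2 and bars for mean ± SD. In the first 5 panels the 4 homozygous libraries lie below the 3 wild type ones, and for Olfr1440 they overlap.

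These counts did not hold under every fit. With the Xist level (above or below 100 CPM) as a covariate, 0 of the 29 had an unadjusted p under 0.05. Over all genes the share in either direction was 3.10%, and 3.02% without the covariate. With it the difference for Olfr1450 was -1.123 ± 0.58 (SE, log2, unadjusted p = 0.0775 by edgeR). For Olfr1477 the difference was -0.91 ± 0.55 and for Olfr1448 -1.03 ± 0.52 (SE, log2, unadjusted p = 0.128 and 0.0710 by edgeR). With the replicate number as a block over all 11 libraries, Olfr1477 was at -1.01 ± 0.45 and Olfr1448 at -0.91 ± 0.42 (SE, log2, unadjusted p = 0.0541 and 0.0582 by edgeR). The count at an unadjusted p under 0.05 was then 1 (1.73% of all genes). In a paired fit of homozygous and wild type libraries alone it was 4 of 27, where the share of all genes had also risen, to 6.31%, with 39 genes past adjusted p in all and 0 of them on the list.

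Over the 29 tested genes, 23 had a log2 fold change below 0, and the median was -0.35. It was -0.28 over the other Olfr genes (399 of 539 below 0) and 0.02 over all genes tested. By chromosome, medians over tested Olfr genes ran from -0.49 (chromosome 2) to 0.11 (chromosome 4) in the 12 chromosomes with at least 10. Chromosome 19 was 5th from the lowest at -0.35, over 31 tested Olfr genes with the 29 among them. MOR202 had a median of -0.59 over 12 tested genes, 11 of them below 0, MOR239 -0.35 over 5, and MOR266 0.06 over 5. The 18 tested genes after the gap had a median of -0.49 and the 11 before it -0.22. These medians are descriptions, and differences between them were not tested. For 6 of the 29 genes the 95% interval excluded a 2-fold fall, and for 27 a 2-fold rise. For Olfr1440 the log2 fold change was -0.22 (95% interval -0.95 to 0.52).

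Within set 1 the median log2 ratio of mean CPM (0.1 added to each) over the 29 genes was -0.30 (25 lower), and within set 2, with 1 wild type library, -0.53 (26 lower). The 9 markers of mature OSNs had a median log2 fold change of -0.31 with 9 of 9 below 0 and 0 past an unadjusted p of 0.05. Skeletal muscle markers had 3.61, with 6 of 6 above 0 and 4 of them with an unadjusted p under 0.05. Their part in the lower OR levels was not tested.

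In heterozygous against wild type libraries 0 of the 29 genes had an adjusted p under 0.05 (0.0% of all genes tested), and DESeq2 called 0 of them and 3 genes in all. At an unadjusted p under 0.05, 0 were lower, beside 0.495% of all tested genes and 6 of the 539 other Olfr genes, and 0 higher. The 5 lowest p belonged to Olfr1437, Olfr1447, Olfr1465, Olfr1440 and Olfr1487, all with lower heterozygous means. Olfr1437 stood at 2.87, 1.92 and 2.26 CPM in wild type, 1.70, 1.73, 1.61 and 0.642 in heterozygous and 1.93, 1.53, 2.42 and 1.72 in homozygous replicates. It was the 1 gene of 29 whose heterozygous libraries all lay below wild type, which held for 1.1% of all tested genes and 20 of the 539 other Olfr genes. The heterozygous difference by edgeR was -0.70 ± 0.35 (SE, log2, unadjusted p = 0.0651), and its near copy Olfr1436 is 95.5% identical.

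Olfr1465 had the steepest heterozygous difference, -1.003 ± 0.58 on the log2 scale (SE, unadjusted p = 0.107 by edgeR), and with single libraries left out it ran from -1.60 without heterozygous 2 (unadjusted p = 0.0199) to -0.28 without wild type 3. Without wild type 2 it was -1.34 (unadjusted p = 0.0459). Its wild type values were 1.02, 0.641 and 2.42 CPM, and the next highest of the 11 libraries was heterozygous 2 at 1.33 CPM. The median log2 fold change over the 29 genes was -0.21 (22 below 0), with -0.13 over other Olfr genes and 0.00185 over all genes. Without wild type 3 the median was -0.03. Over all 31 tested Olfr genes of chromosome 19 the median was -0.25, the lowest of the 12 chromosomes in this comparison, and the highest was -0.02. The -0.21 of the 29 genes lay above the medians of chromosome 9 (-0.24) and chromosome 16 (-0.23). The 9 markers of mature OSNs had a median of -0.19, with 9 of 9 below 0 and 0 at an unadjusted p under 0.05. Markers of skeletal muscle were higher here in 6 of 6, each at an unadjusted p under 0.05.

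In homozygous against heterozygous libraries 0 of the 29 genes had an adjusted p under 0.05 (0.0% of all genes tested), and DESeq2 called 0 of them and 2 genes in all. At an unadjusted p under 0.05, 1 gene was lower, Olfr1448, where 0.241% of all tested genes and 7 of the 539 other Olfr genes were lower. The difference by edgeR was -0.97 ± 0.37 (SE, log2, unadjusted p = 0.0212), and it was -0.78 without heterozygous 1 (unadjusted p = 0.0729) and -0.90 without heterozygous 2 (unadjusted p = 0.0514). The next genes by p were Olfr1463, Olfr1450, Olfr1477 and Olfr1501, all with lower homozygous means. Olfr1463 stood at 1.22, 1.41, 1.80 and 1.498 CPM in heterozygous and 1.18, 0.982, 0.954 and 0.344 in homozygous replicates. Its libraries did not overlap, and neither did those of Olfr1477 and Olfr1501, so that 3 of 29 lay wholly below, against 0.302% of all tested genes and 6 of the 539 other Olfr genes. For Olfr1463 and Olfr1501 wild type libraries lay on both sides of that gap. Over all 31 tested Olfr genes of chromosome 19 the median log2 fold change was -0.13, 8th from the lowest of the 12 chromosomes. The median over the 29 genes was -0.19 (20 below 0), with -0.14 over other Olfr genes. Beside it, mature OSN markers had a median of -0.08 (8 of 9 below 0) and skeletal muscle markers -0.61 (6 of 6 below 0), with 0 of either at an unadjusted p under 0.05. The 3 comparisons share libraries and are not independent of each other.

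**Figure D5:**
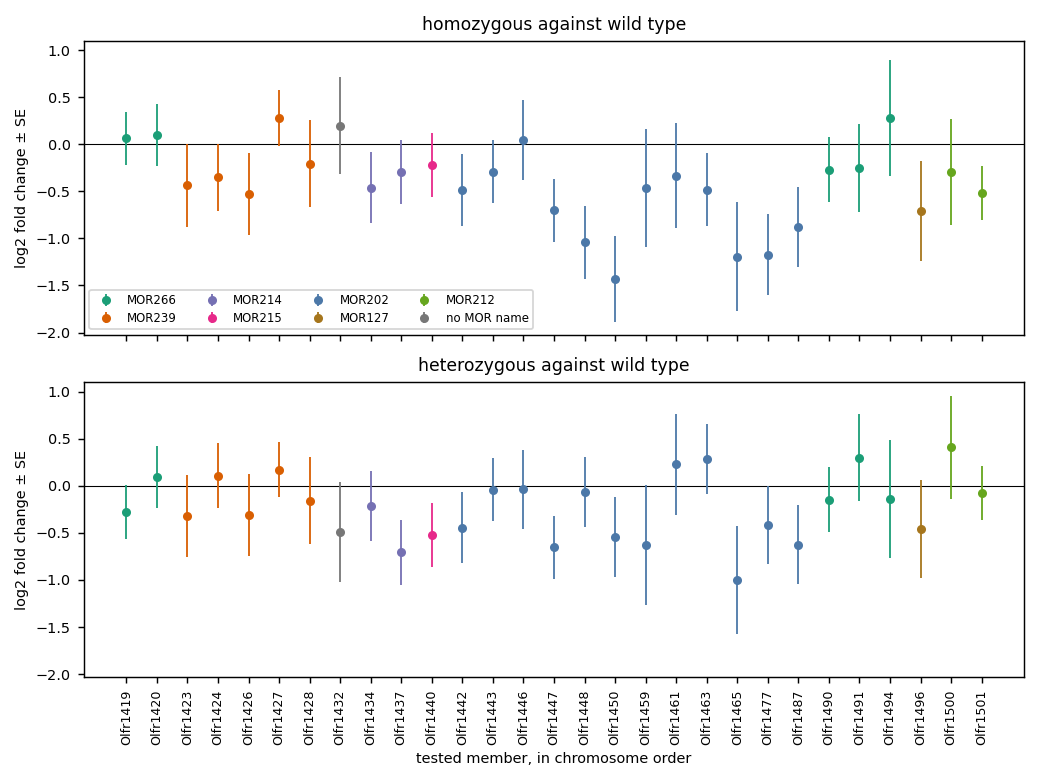
Log2 fold change ± SE of the 29 tested genes, in chromosome order and coloured by MOR family, for homozygous and heterozygous against wild type libraries. In the upper panel 11 of 12 MOR202 genes lie below 0, and 0 genes of either panel have an adjusted p under 0.05.

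Genes of OR choice, trafficking and signalling were followed in the same fit. Of 14 regulators of OR choice and transcription, which include Lhx2 and its cofactor Ldb1, the Ebf factors, the demethylase Kdm1a and the feedback factor Atf5, 0 had an adjusted or unadjusted p under 0.05 in any of the 3 comparisons. Their median log2 fold changes were 0.05 (homozygous to wild type), 0.01 (heterozygous to wild type) and 0.01 (homozygous to heterozygous). The 4 trafficking genes (Rtp1, Rtp2, Reep1 and Ric8b), which help receptors reach the cilia or couple to G proteins, had medians of -0.22, -0.07 and -0.13. The 12 transduction genes had -0.27, -0.17 and -0.11, and 12 of 12 lay below 0 in homozygous against wild type libraries. Most of the mature OSN markers above are among these 12. None of the 16 passed an unadjusted p of 0.05. The channel subunit Cngb1 had the lowest p, at 43.4 ± 3.13 CPM in homozygous and 57.3 ± 20.2 CPM in wild type libraries (SD, -0.40 ± 0.21 SE on the log2 scale, unadjusted p = 0.0845 by edgeR).

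Genes that share the chromosomal region but carry no Olfr symbol served as a further comparison. The 15 tested include Ms4a6b, Ms4a6c, Ms4a6d and Ms4a7, of a family whose members also serve as chemoreceptors in a separate type of OSN. Of 31 annotated non-Olfr genes within the cluster or 500 kb of it, 15 were tested and 0 had an adjusted p under 0.05 in any comparison. Their median log2 fold changes were 0.07, -0.01 and 0.04. The macrophage gene Ms4a6d was the 1 neighbour at an unadjusted p under 0.05, with 6.34 ± 0.465 CPM in heterozygous and 3.71 ± 0.0847 CPM in wild type libraries (SD, 0.77 ± 0.35 SE on the log2 scale, unadjusted p = 0.0453 by edgeR). The 4 immune markers lay above 0 in the same comparison, with a median of 0.34 and 2 at an unadjusted p under 0.05. In homozygous against wild type libraries their median was 0.39, with 3 of 4 above 0 and 1 at that threshold. Their part in the Ms4a6d level was not tested.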

How the data were processed

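Per the labels, total RNA of whole MOE was made into libraries with polyA selection and a directional kit. The submitters' processing notes name Trimmomatic 0.36, HISAT2 2.1.0, featureCounts of Subread 1.6.2 and DESeq2 1.20.0. The authors deposited raw read counts per gene symbol, aligned to mm10, and these counts were used, while a table of size-factor-normalised values was not used here. The annotation, strand setting and handling of reads with several positions are not given in the sources used here. The table had 0 columns of no sample.

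Genotypes came from the labels. Counts were fitted over 3 genotypes and 11 libraries with edgeR 4.0.16 (R 4.3.3) after TMM scaling and the filterByExpr filter, and quasi-likelihood F-tests were adjusted over 16574 genes (Benjamini-Hochberg, threshold 0.05). The fit was tested on simulated data without library sets, with changed genes drawn from those above a mean of 2 CPM. It recovered 47 of 50 genes of a 4-fold fall and 22 of 50 of a 2-fold fall in the homozygous against wild type comparison. There were 9 false calls. Most of the 29 tested genes of the list had a lower mean, so these rates do not describe them. P-values measure the spread between libraries, for which no separate litters are named. Level per coding kb is mean CPM divided by the GENCODE M21 coding length. Shares were computed from raw counts, with no test. The self-made library sets are the signs of the first principal component.

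Same-numbered homozygous and wild type libraries deviated together (correlations 0.326, 0.415 and 0.396), so the numbers were taken as pairing them in alternative fits, from the data only. The main fit used no pairing. Differently numbered libraries of the same set correlated as strongly (wild type 3 with homozygous 4 at 0.467, wild type 1 with homozygous 2 at 0.364), so number and library set cannot be told apart here. Same-numbered heterozygous libraries did not (-0.585 to -0.188). The members and lists were chosen with earlier results of these data known. Genes named are the 10 with the highest level per coding kb, the 5 with the lowest p in each comparison, Olfr1440 and any gene past the adjusted threshold. Lists comprised cell type markers, OR pathway genes and neighbours within 500 kb. Alternatives were RLE scaling, no filter, DESeq2 1.42.0, a replicate block, the library set as a covariate, fits of 2 genotypes and each library left out. The Xist covariate and the 2-genotype block fit were added after seeing the data.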

Additional observations from a re-analysis of the deposited data

Results flagged for a closer look

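In groups of 4 libraries, values that stood far from the other 3 were looked for in 42 groups of shares, ratios and named genes, where chance alone marks about 5% of groups. Marked values were 3. The MOR202 share of OR counts was 1.30% in heterozygous 1, against 1.85 to 1.95% in the other heterozygous libraries. Olfr1437 was at 0.642 CPM in heterozygous 4, against 1.61 to 1.73 CPM, and without that library its heterozygous log2 fold change was -0.48. Olfr1477 was at 0.172 CPM (2 counts) in homozygous 4, against 0.545 to 0.589 CPM, and without it the homozygous log2 fold change to wild type was -0.90.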

How the results depend on the processing

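No tested gene of the 59 passed an adjusted p of 0.05 under any alternative run. Most alternatives tested only those that passed the filter on low counts. The 25 named fold changes kept their direction in 451 of 460 alternatives. The number at an unadjusted p under 0.05 did change. In homozygous against wild type libraries (3 genes) it was 1 with a replicate block, 0 with the Xist covariate, 4 with the library set as covariate (6.83% of all genes in either direction, against 3.02%) and 2 to 4 with single libraries left out. For heterozygous libraries against wild type (0) it was 3 with the library set as covariate (4.55% of all genes, against 2.24%) and 0 to 1 with single libraries left out, with 1 without wild type 2, heterozygous 2 or heterozygous 3. In homozygous against heterozygous libraries (1) it was 2 without the filter (0.954% of all genes, against 0.561%), with the Xist covariate (0.585%) and with DESeq2 (0.556%), 3 with the library set (1.37%), 0 of 19 tested in a fit of the 2 genotypes alone (0.412%), and 0 to 2 with single libraries left out, with 0 without heterozygous 1 or 2 and 2 without heterozygous 3 or homozygous 1. With the library set the share of all genes rose too. Whether these counts are particular to the 59 genes was not tested, and neither was the cause.

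The median log2 fold change of the tested genes ranged from -0.57 (without wild type 2) to -0.26 (without wild type 3) in homozygous against wild type libraries, with -0.54 without homozygous 3. It ranged from -0.33 (without heterozygous 2) to -0.03 (without wild type 3) for heterozygous libraries, with -0.09 without heterozygous 4. In homozygous against heterozygous libraries it was -0.31 without heterozygous 4, -0.08 without heterozygous 2, and -0.07 without heterozygous 3 or homozygous 2. As percent of all counts in place of OR counts, the log2 ratios of the share were -0.44, -0.21 and -0.23. Leaving out single libraries gave -0.13 to 0.05, -0.14 to 0.03 and -0.02 to 0.06 for the OR share, all within 1 SD of the values reported.

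With the replicate block the medians were -0.26, -0.20 and -0.23. The numbers pair homozygous and wild type libraries by correlation alone, and heterozygous libraries share only a number. The block changed no other call, and turned the homozygous fold change of Olfr1491 to 0.0267. That of Olfr1443 was 0.0138 and that of Olfr1420 -0.12 with the Xist covariate. With single libraries left out, homozygous fold changes ran from -0.62 to 0.26 for Olfr1491, from -0.40 to 0.12 for Olfr1428, from -0.44 to 0.17 for Olfr1440 and from -0.0729 to 0.37 for Olfr1420. The signs turned without wild type 1 for Olfr1491, without wild type 3 for Olfr1428 and Olfr1440, and for Olfr1420 without wild type 1 (-0.02), wild type 3 (-0.02) or homozygous 3.

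The 59 genes held a median of 74 counts over 11 libraries. For the 29 tested genes, 95% intervals, which reflect the spread between libraries, lay within a 2-fold change both ways for 5, 9 and 9 genes in the 3 comparisons.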
